A study of Mus musculus with 18 samples.

Results

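The 32 genes described here encode enzymes of fatty acid oxidation, together with the carnitine shuttle that feeds it and a factor of peroxisome division. They were chosen by name, and all 32 were found among the 53465 genes of the count tables. RNA was sequenced from brown adipose tissue (BAT), skeletal muscle (SKM) and white adipose tissue (WAT) of C57BL/6J mice, a common inbred strain, in a study of low-dose quercetin and healthspan. Mice of the quercetin groups were given 0.125 mg/kg of quercetin, a plant flavonol, by oral gavage, in a volume of 100 µL made up of buffered saline (PBS) and 10% PEG400, and mice of the vehicle groups were given the same vehicle without quercetin. Each tissue had 3 quercetin and 3 vehicle libraries, 18 in all. The age, sex and length of treatment of the sequenced mice, the muscle and the white fat depot are not given in the labels used here, which give 14 months, male sex and weekly treatment for the lifespan experiment only. They do not say that libraries of a group come from separate animals, so a p-value reflects only how far these samples spread, which may be technical.

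Fatty acids are activated to acyl-CoA by long-chain synthetases and pass into mitochondria through the carnitine shuttle, whose gate is carnitine palmitoyltransferase 1. Each turn of the mitochondrial spiral then runs through an acyl-CoA dehydrogenase, a hydratase, a hydroxyacyl-CoA dehydrogenase and a thiolase, and the electrons leave through the electron transfer flavoprotein. Peroxisomes shorten very long and branched chains with enzymes of their own. In brown fat the pathway fuels heat production through uncoupling protein 1, in muscle it fuels contraction, and white fat is mainly a store.

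Counts summed over genes ran from 8436308 to 12311345 per library. Levels are given as RPKM, which is the count scaled to the library's size (CPM, with TMM factors over all 18 libraries) and divided by the exon length in kilobases. Ucp1, the uncoupling protein of brown fat, was at 546 to 2900.1 RPKM in BAT, 0 to 171 RPKM in SKM and 0 to 11.0 RPKM in WAT. Acta1, the actin of skeletal muscle, was at 0.856 to 5957 RPKM in BAT, 9345 to 23583 RPKM in SKM and 8.16 to 168 RPKM in WAT, and Adipoq, the adiponectin gene of adipocytes, at 385 to 747 RPKM in BAT, 2.53 to 341 RPKM in SKM and 12.9 to 796 RPKM in WAT. Ucp1 and Acta1 were higher in every library of their own tissue than in any other library, Adipoq was not, and several libraries stood apart. BAT quercetin 3 had 5957 RPKM of Acta1 and 546 RPKM of Ucp1. SKM quercetin 2 had 171 RPKM of Ucp1 and 19117 RPKM of the seminal vesicle gene Svs5, which was at 0 in the other 5 SKM libraries. SKM vehicle 3 had 341 RPKM of Adipoq and WAT vehicle 2 had 12.9 RPKM. The 12 muscle markers summed to 3.45 to 22439 RPKM in BAT, 43836 to 87282 RPKM in SKM and 9.71 to 887 RPKM in WAT, the 10 adipocyte markers to 6964 to 13329 RPKM in BAT, 376 to 6276 RPKM in SKM and 359.7 to 20527 RPKM in WAT, and the 6 B cell markers to 0.491 to 1.79 RPKM in BAT, 0.156 to 3.08 RPKM in SKM and 0.649 to 1507 RPKM in WAT. The part of this admixture in the results was not tested, except where a value without such libraries is given. In tissue libraries, fewer cells of a type and less RNA per cell cannot be told apart.

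The 32 genes were at their highest in BAT. The mean level was highest in BAT for 30 genes, in SKM for Mlycd and in WAT for Cpt1a, and it was lowest in WAT for 23 genes and in SKM for 9. The rank of Mlycd rested on SKM vehicle 1: the other 5 SKM libraries averaged 60.7 ± 18.7 RPKM (± SD), against 67.4 ± 23.4 RPKM over the 6 BAT libraries. The summed level of the 32 genes was 2636, 8316 and 10602 RPKM (lowest, median and highest of 6 libraries) in BAT, 1038, 1641 and 1864 RPKM in SKM, and 326, 694 and 1534 RPKM in WAT. Every BAT library lay above every library of the other tissues in this sum, and SKM and WAT overlapped. The lowest BAT library was BAT quercetin 3, and the highest WAT library, WAT vehicle 1, reached into the range of SKM.

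**Figure D1:**
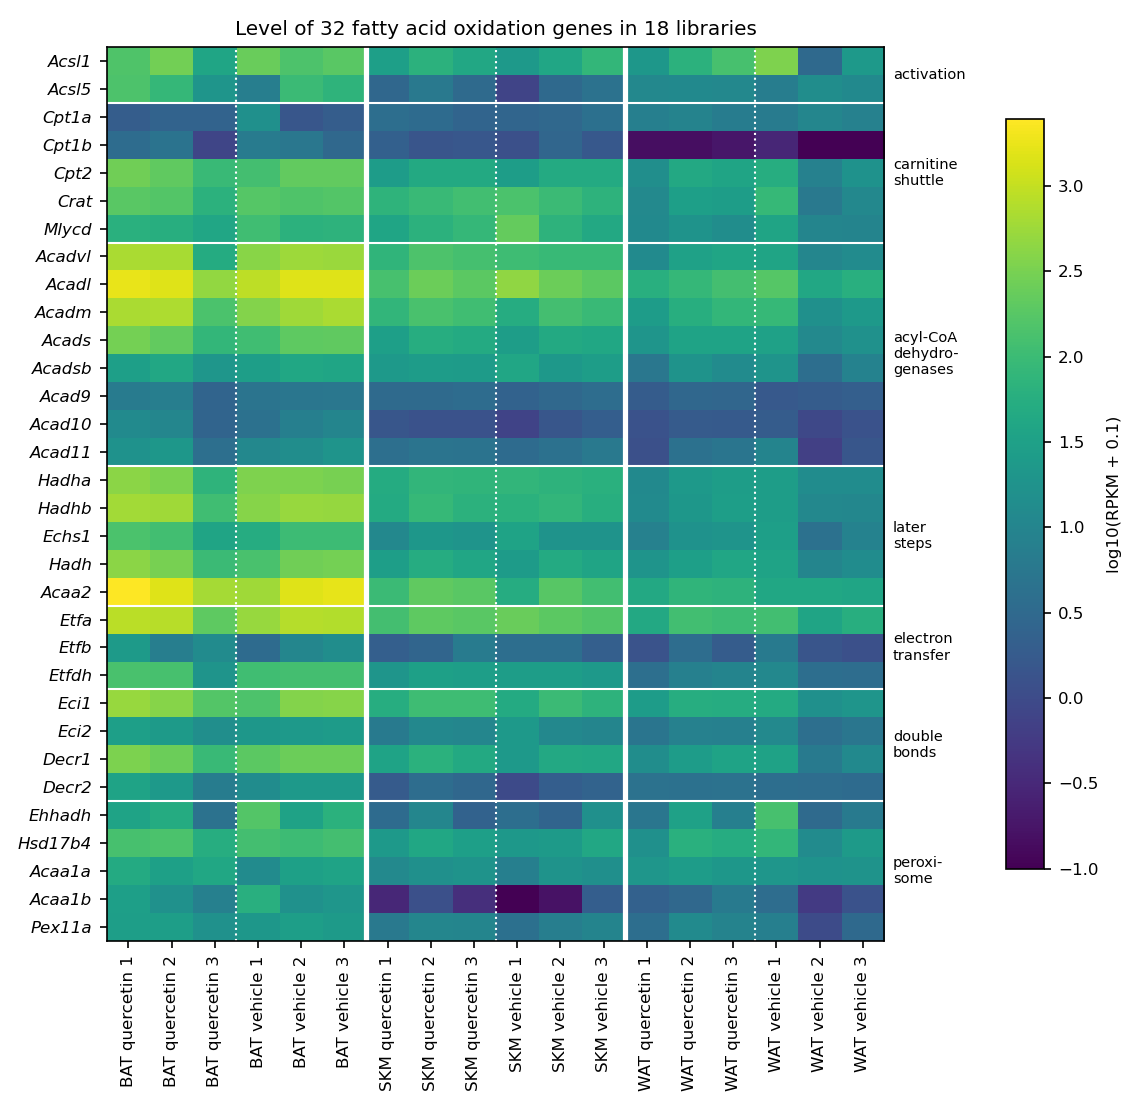
Level of each of the 32 genes (rows, grouped by role) in each of the 18 libraries (columns), on a colour scale of log10 of RPKM plus 0.1. The BAT columns hold the highest values for most rows, BAT quercetin 3 is lower than the other BAT columns, and Cpt1b is lowest in WAT, where its median was 0.0452 RPKM.

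Tissues were compared over both treatments by edgeR's quasi-likelihood F test with Benjamini-Hochberg adjustment over 16388 genes, and a gene was called at an adjusted p under 0.05. In BAT over WAT, 28 of the 32 genes were called higher and 0 lower, where 18.3% of all genes were called higher and 22.0% lower. The median log2 fold change was 2.65 for the 32 genes and -0.13 for all genes tested. In BAT over SKM, 26 were called higher and 0 lower, where 13.9% of all genes were called higher and 13.3% lower, with medians of 2.08 for the 32 genes and 0.031 for all genes. In SKM over WAT, 12 were called higher and 3 lower, where 21.7% of all genes were called higher and 28.6% lower, with medians of 0.71 and -0.24. The counts of SKM over WAT moved with single libraries. Without WAT vehicle 1 the number called higher was 21, where 23.6% of all genes were, with Acadm, Acads, Acad11, Echs1, Hadh, Decr1, Eci2, Cpt2 and Pex11a added. The 3 called lower became 0 without SKM quercetin 3, 1 without SKM vehicle 2 and 5 without SKM vehicle 3. The shares of all genes called lower in these settings are not given here, so the 3 counts stand without a background. The number of all genes called lower moved too, from 4689 with every library to 3797 without SKM quercetin 3.

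Subsets of the libraries gave the following numbers of the 32 genes called higher in BAT over WAT, BAT over SKM and SKM over WAT, each with the share of all genes called higher in the same subset. Without the 4 libraries of mixed content (BAT quercetin 3, SKM quercetin 2, SKM vehicle 3 and WAT vehicle 2) they were 28, 26 and 11, where 15.5%, 13.3% and 19.1% of all genes were called higher. WAT quercetin 1 and WAT vehicle 3, which stayed in, also had high B cell marker sums, 1507 and 559 RPKM, against 1241 RPKM in WAT vehicle 2. With these 2 left out as well, an alternative chosen after seeing the data, the numbers were 27, 27 and 7, where 9.54%, 13.9% and 16.2% of all genes were called higher, and 0, 0 and 5 were called lower, where 6.52%, 13.6% and 14.3% of all genes were. In SKM over WAT the shares called higher and lower were then near those of all genes. This subset kept WAT vehicle 1 as the only WAT vehicle library, beside WAT quercetin 2 and 3. WAT vehicle 1 and WAT quercetin 2 came from flow cell H7GKJDSXX, which gave 3 of the 18 libraries. Cell content, flow cell and the single vehicle library cannot be told apart here. Within the 15 libraries of flow cell H7H2WDSXX the numbers called higher were 30, 26 and 19, where 23.5%, 13.2% and 23.5% of all genes were. With the quercetin libraries alone they were 24, 15 and 3, where 11.6%, 7.72% and 16.7% of all genes were, and with the vehicle libraries alone 18, 11 and 6, where 5.55%, 2.25% and 11.6% were. With the quercetin libraries alone the share in SKM over WAT was below that of all genes.

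**Figure D2:**
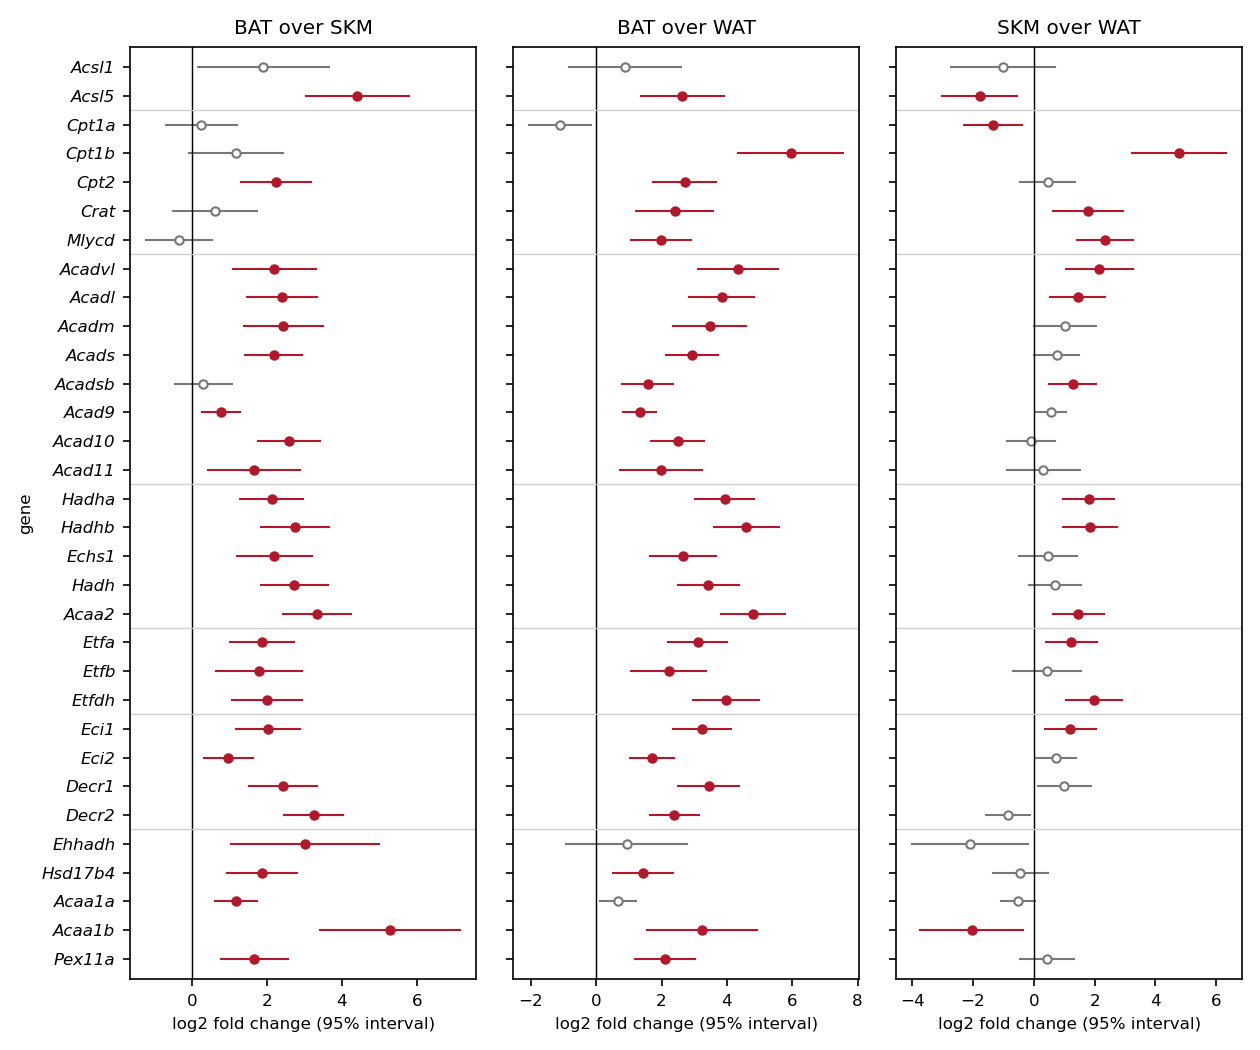
Log2 fold change between tissues (x axis) with its 95% interval for each of the 32 genes (y axis, grouped by role), in one panel for each pair of tissues. Filled red points passed an adjusted p of 0.05 and open grey points did not. In BAT over WAT only Cpt1a lies below 0, at -1.11.

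Activation by long-chain acyl-CoA synthetases was represented by Acsl1 and Acsl5. Acsl5 (chr19:55251938-55297720 in GRCm38) was at 7.46, 78.4 and 148 RPKM in BAT, 0.694, 3.14 and 5.91 RPKM in SKM and 7.26, 11.6 and 14.1 RPKM in WAT (lowest, median and highest of 6 libraries in each tissue, here and below). Every SKM library was below every library of the other tissues, and BAT vehicle 1 was the one BAT library within the range of WAT. The log2 fold change (± SE, n = 6 libraries a tissue) was 4.41 ± 0.64 in BAT over SKM and -1.78 ± 0.58 in SKM over WAT (adjusted p = 0.000252 and 0.0191, edgeR). The second call was lost without SKM quercetin 3, at -1.66 (adjusted p = 0.0513, edgeR), and without the 4 mixed and 2 B cell libraries, at -1.88 (adjusted p = 0.0687, edgeR). Acsl1, the main synthetase of fat cells, was at 38.6, 169.5 and 286 RPKM in BAT, 22.3, 40.9 and 80.8 RPKM in SKM and 3.02, 44.6 and 345 RPKM in WAT. Acsl1 was not called in any pair of tissues, and its WAT libraries spanned those of both other tissues. WAT vehicle 1 held the highest value of all 18 libraries, and without it Acsl1 was called in BAT over WAT at 2.52 (adjusted p = 0.00700, edgeR) and in BAT over SKM at 1.90 (adjusted p = 0.0253, edgeR). The second of these was also called without WAT vehicle 2, at 1.89 (adjusted p = 0.0406, edgeR), and without the 4 mixed libraries, at 2.61 (adjusted p = 0.0223, edgeR). Without the 4 mixed and 2 B cell libraries Acsl1 was called lower in SKM over WAT, at -2.38 (adjusted p = 0.00233, edgeR). Within flow cell H7H2WDSXX, which leaves out WAT vehicle 1, it was called in BAT over WAT, at 2.51 (adjusted p = 0.0153, edgeR). Acsl5 made up 29.4 ± 16.0% in BAT, 6.54 ± 2.09% in SKM and 29.6 ± 29.2% in WAT of the summed level of the pair (± SD, n = 6 libraries).

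The carnitine shuttle held both genes whose mean was highest outside BAT, Cpt1a and Mlycd. Cpt1a and Cpt1b encode the liver-type and muscle-type forms of carnitine palmitoyltransferase 1, which makes acylcarnitine at the outer mitochondrial membrane. Cpt1a (chr19:3322334-3385733) was at 1.38, 2.14 and 15.9 RPKM in BAT, 2.51, 3.14 and 4.10 RPKM in SKM and 6.66, 8.08 and 10.3 RPKM in WAT. Every SKM library lay below every WAT library, and 5 of 6 BAT libraries lay below every SKM and WAT library. The sixth, BAT vehicle 1, had the highest value of all 18. This library also had 1.16 RPKM of Adrb3, the adrenergic receptor of adipocytes, where the other BAT libraries had 30.6 to 243 RPKM. The adipocyte markers did not all go that way. Its Plin1, at 391 RPKM, was the highest of BAT, against 113 to 337 RPKM. Its 10 adipocyte markers summed to 6964 RPKM, against 7374 to 13329 RPKM in the other BAT libraries. The part of cell content in the Cpt1a values was not tested. In SKM over WAT Cpt1a was lower, with a log2 fold change of -1.34 ± 0.45 (adjusted p = 0.0221, edgeR), a call lost without SKM vehicle 2, at -1.25 (adjusted p = 0.0557, edgeR), and without SKM quercetin 3, at -1.21 (adjusted p = 0.0623, edgeR). It was also lost without the 4 mixed libraries, at -1.39 (adjusted p = 0.0800, edgeR), without these and the 2 B cell libraries, at -1.23 (adjusted p = 0.213, edgeR), and within flow cell H7H2WDSXX, at -1.27 (adjusted p = 0.0763, edgeR). In BAT over WAT it was -1.11 ± 0.45 and missed the threshold (adjusted p = 0.0609, edgeR). Without BAT vehicle 1 the same value was -2.08 (adjusted p = 2.12e-05, edgeR), and BAT over SKM was -0.76 (adjusted p = 0.0160, edgeR) in place of 0.24 ± 0.45.

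The stretch before the start of Cpt1a is shown because this gene departed from the order of the others. It comes from the RefSeq promoter table of GRCm38, on the plus strand at chr19:3323051-3323284, and lies between annotated exons of the gene, ending 16 bases before the RefSeq start. The capitals mark its match to AGGTCA, the hexamer bound by nuclear receptors, which is read here on the opposite strand as TGACCT.
Cpt1a: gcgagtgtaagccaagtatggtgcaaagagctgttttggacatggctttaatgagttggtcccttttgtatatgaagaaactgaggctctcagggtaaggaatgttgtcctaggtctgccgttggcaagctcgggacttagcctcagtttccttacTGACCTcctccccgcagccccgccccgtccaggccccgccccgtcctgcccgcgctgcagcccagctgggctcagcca

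Cpt1b had another order. The gene (chr15:89416405-89425863) was at 0.713, 4.09 and 6.51 RPKM in BAT, 1.07, 1.49 and 2.71 RPKM in SKM and 0, 0.0452 and 0.194 RPKM in WAT. Every WAT library was below every BAT and SKM library, and BAT and SKM overlapped. The reads behind these levels were 23 to 219 per library in BAT, 31 to 76 in SKM and 0 to 6 in WAT, where 2 libraries had 0. The log2 fold change was 5.96 ± 0.75 in BAT over WAT and 4.78 ± 0.73 in SKM over WAT (adjusted p = 5.64e-05 and 0.000129, edgeR), the largest of the 32 genes in both. In BAT over SKM it was 1.18 ± 0.59 and missed the threshold (adjusted p = 0.156, edgeR), but passed without WAT vehicle 1, at 1.18 (adjusted p = 0.0461, edgeR). Cpt1b took 54.0 ± 22.8% in BAT, 34.2 ± 7.91% in SKM and 0.859 ± 1.07% in WAT of the summed level of both forms (± SD, n = 6 libraries). In the GENCODE annotation 81.4% of the Cpt1b exon bases lie in the read-through gene Gm44502 on the same strand, which is not among the gene identifiers of the files. How such reads were counted is not given, so the level of Cpt1b beside other genes and this share are uncertain.

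The other genes of the shuttle are Cpt2, the inner membrane transferase that restores acyl-CoA, Crat, the carnitine acetyltransferase, and Mlycd. Cpt2 averaged 192 ± 69.0 RPKM in BAT, 40.6 ± 10.3 RPKM in SKM and 29.5 ± 18.7 RPKM in WAT (± SD, n = 6 libraries a tissue, as for all means below), and was called higher in BAT than in both other tissues. Crat averaged 152 ± 42.4 RPKM in BAT, 98.9 ± 27.6 RPKM in SKM and 29.3 ± 31.0 RPKM in WAT, and had a log2 fold change of 1.79 ± 0.54 in SKM over WAT (adjusted p = 0.0132, edgeR). It was not called in BAT over SKM, where the interval was -0.51 to 1.74. Mlycd encodes malonyl-CoA decarboxylase, which breaks down the inhibitor of carnitine palmitoyltransferase 1. It was at 40.2, 63.6 and 110.2 RPKM in BAT, 38.5, 67.5 and 224 RPKM in SKM and 9.51, 13.03 and 36.8 RPKM in WAT. All BAT and SKM libraries lay above all WAT libraries, and BAT and SKM overlapped. Mlycd had a log2 fold change of 2.35 ± 0.43 in SKM over WAT (adjusted p = 0.000505, edgeR). In BAT over SKM its interval was -1.24 to 0.52. The 5 genes of the shuttle and its control made up 6.12 ± 1.37% in BAT, 14.7 ± 3.95% in SKM and 10.4 ± 1.22% in WAT of the summed level of the 32 genes. Only Cpt2 among them was called higher in BAT than in SKM, where 13.9% of all genes were.

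**Figure D3:**
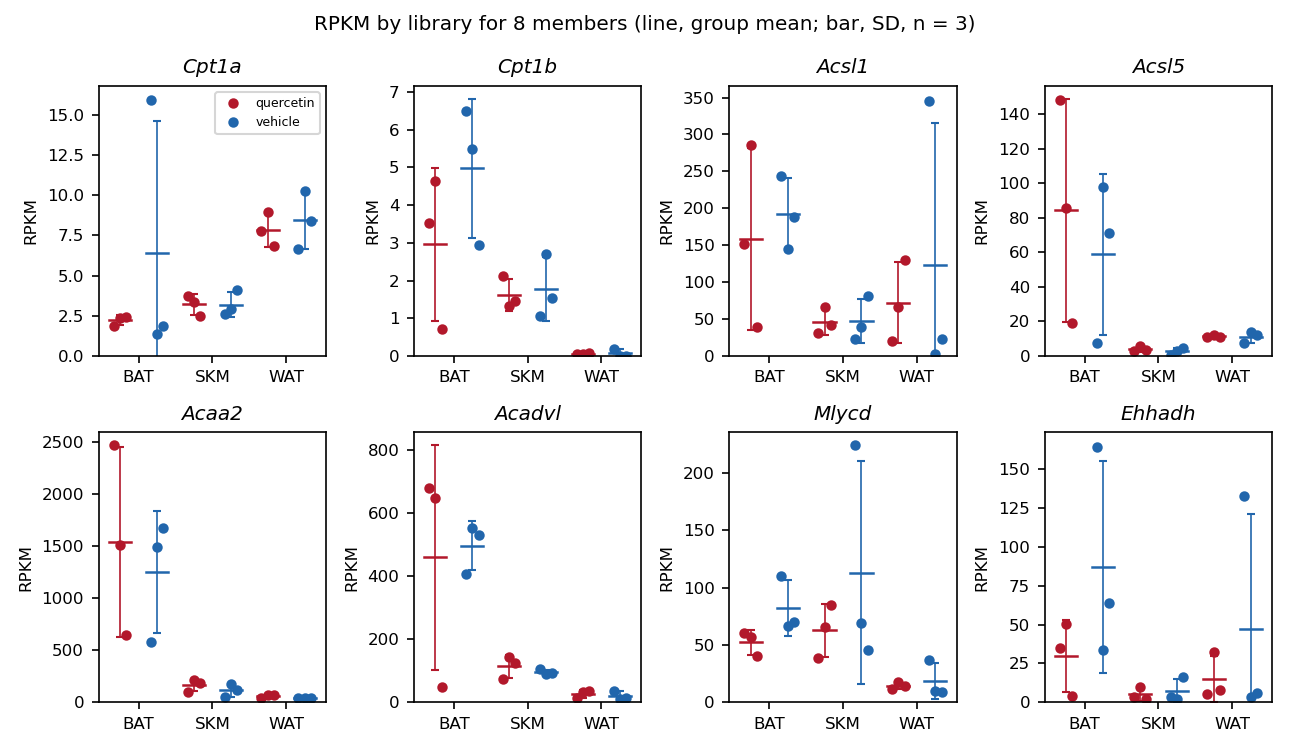
RPKM (y axis, from 0) of 8 of the genes in each library, by tissue, with the quercetin libraries in red left of the vehicle libraries in blue. Lines are means and bars SD over 3 libraries. BAT vehicle 1 is the lone high Cpt1a point at 15.9 RPKM and SKM vehicle 1 the lone high Mlycd point at 224 RPKM.

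The acyl-CoA dehydrogenases, which take the first step of each turn, were called higher in BAT than in WAT for 8 of 8 genes and higher in BAT than in SKM for 7 of 8. Of all genes 18.3% and 13.9% were called higher in these 2 comparisons. Between SKM and WAT, 3 of 8 were called higher in SKM, where 21.7% of all genes were. Acadl, the long-chain enzyme, was at 476, 1496 and 1768 RPKM in BAT, 128, 227 and 469 RPKM in SKM and 43.5, 72.1 and 172 RPKM in WAT. Every BAT library was above every other library, and SKM and WAT overlapped. Its log2 fold change was 3.84 ± 0.47 in BAT over WAT, 2.39 ± 0.44 in BAT over SKM and 1.45 ± 0.43 in SKM over WAT (adjusted p = 3.98e-05, 0.00118 and 0.0111, edgeR). The last was 0.95 (adjusted p = 0.0921, edgeR) without the 4 mixed and 2 B cell libraries. Acadvl, the very-long-chain enzyme of the inner membrane, was at 49.6, 542 and 681 RPKM in BAT, 75.0, 98.8 and 145 RPKM in SKM and 10.3, 22.8 and 37.8 RPKM in WAT. The low BAT value came from BAT quercetin 3 and lay below every SKM library, and the next lowest BAT value was 409 RPKM. BAT quercetin 3 had muscle transcripts and also the highest adipocyte marker sum of BAT, 13329 RPKM. Other markers went the other way. The adipocyte marker Plin1 was at 113 RPKM in this library, against 251 to 391 RPKM in the other BAT libraries. Its 10 brown adipocyte markers summed to 5970 RPKM, against 7213 to 16625 RPKM. Its 7 slow muscle markers summed to 2335 RPKM, against 8.28 to 472 RPKM in SKM. The part of cell content in the Acadvl value was not tested. Acadvl had a log2 fold change of 4.34 ± 0.57 in BAT over WAT and 2.16 ± 0.52 in SKM over WAT (adjusted p = 7.54e-05 and 0.00331, edgeR). In the annotation 42.9% of its exon bases lie opposite Dvl2, and the strand setting of the counting is not given, so reads of both genes may not be told apart.

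Acadm and Acads encode the medium-chain and short-chain enzymes. Acadm was at 138, 635 and 701 RPKM in BAT, 51.9, 103 and 134 RPKM in SKM and 16.1, 41.4 and 86.9 RPKM in WAT. BAT stood above both other tissues in every library, and SKM and WAT overlapped. Acads averaged 188 ± 79.7 RPKM in BAT, 41.5 ± 10.9 RPKM in SKM and 25.0 ± 10.5 RPKM in WAT, with a log2 fold change of 2.93 ± 0.37 in BAT over WAT and 2.18 ± 0.36 in BAT over SKM (adjusted p = 5.49e-05 and 0.000573, edgeR). Acadsb, which acts on short branched chains, was the one dehydrogenase not called in BAT over SKM, with an interval of -0.47 to 1.05 on the log2 scale. It averaged 33.5 ± 8.79 RPKM in BAT, 27.5 ± 6.55 RPKM in SKM and 11.2 ± 6.27 RPKM in WAT, and was higher in SKM than in WAT by 1.29 ± 0.36 (adjusted p = 0.00873, edgeR), or 0.77 (adjusted p = 0.0968, edgeR) without the 4 mixed and 2 B cell libraries. The remaining members of the family were low. Acad9, which also takes part in the assembly of respiratory complex I, averaged 5.32 ± 1.65 RPKM in BAT, 3.13 ± 0.477 RPKM in SKM and 2.13 ± 0.543 RPKM in WAT. Acad10 averaged 7.82 ± 3.85 RPKM in BAT, 1.29 ± 0.406 RPKM in SKM and 1.39 ± 0.395 RPKM in WAT, with a log2 fold change of 2.59 ± 0.39 in BAT over SKM (adjusted p = 0.000286, edgeR). Acad11 averaged 14.2 ± 6.08 RPKM in BAT, 4.501 ± 0.887 RPKM in SKM and 3.62 ± 3.37 RPKM in WAT. The calls of Acad9 and Acad11 in BAT over SKM lay near the threshold, at 0.76 ± 0.24 and 1.66 ± 0.58 on the log2 scale (adjusted p = 0.0255 and 0.0441, edgeR). For Acad9 the adjusted p was 0.0508 to 0.0731 (edgeR) without SKM vehicle 1 or 2, SKM quercetin 1, 2 or 3, BAT vehicle 2 or 3 or BAT quercetin 1 or 2, with a log2 fold change of 0.63 to 0.77. For Acad11 the adjusted p was 0.0516 to 0.0961 (edgeR) without SKM vehicle 1, 2 or 3, SKM quercetin 1, 2 or 3, WAT quercetin 3, BAT vehicle 1, 2 or 3 or BAT quercetin 1 or 2, with a log2 fold change of 1.46 to 1.78.

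Stretches before the starts of Acadm and Acadvl are shown because both genes were high in BAT and each holds 1 match to AGGTCA, in capitals. They come from the RefSeq promoter table of GRCm38, are written on the minus strand and end at the base before the RefSeq start, at chr3:153944644-153944893 for Acadm and chr11:70015429-70015678 for Acadvl.
Acadm: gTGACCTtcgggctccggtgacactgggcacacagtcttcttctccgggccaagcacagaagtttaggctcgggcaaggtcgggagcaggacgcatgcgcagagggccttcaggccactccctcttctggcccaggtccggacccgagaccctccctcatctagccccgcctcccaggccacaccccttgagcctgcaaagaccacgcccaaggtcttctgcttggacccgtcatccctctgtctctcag
Acadvl: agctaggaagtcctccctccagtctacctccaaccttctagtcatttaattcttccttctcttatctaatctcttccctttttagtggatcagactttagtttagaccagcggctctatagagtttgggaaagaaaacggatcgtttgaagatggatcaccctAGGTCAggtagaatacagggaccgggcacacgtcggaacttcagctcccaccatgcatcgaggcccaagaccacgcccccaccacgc

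AGGTCA, searched on both strands in the 250 bases before the start, was found for 4 of the 26 members that have an entry in the table, namely Acadm, Acadvl, Cpt1a and Echs1. These are 15.4% of the 26, and 14.0% of all 32851 promoters in the table hold it. The longer form AAGGTCA, whose matches all contain AGGTCA, was found for 1 of the 26, Acadm, or 3.85%, and in 4.08% of all promoters. The repeat AGGTCANAGGTCA was found for 0 of the 26 and in 0.0335% of all promoters. The shares of members were thus close to those of all promoters, and a match describes letters only.

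The later steps of the mitochondrial spiral were called higher in BAT for 5 of 5 genes against both other tissues, and in SKM over WAT for 3 of 5. Of all genes 18.3% were called higher in BAT over WAT, 13.9% in BAT over SKM and 21.7% in SKM over WAT. Acaa2, the thiolase that releases acetyl-CoA, had the highest mean level of the 32 genes in BAT. It was at 582, 1500.1 and 2469.6 RPKM in BAT, 52.1, 146 and 213 RPKM in SKM and 38.3, 42.7 and 75.1 RPKM in WAT. No BAT library overlapped with the other tissues, and the 2 lowest BAT libraries were BAT vehicle 1 and BAT quercetin 3. The log2 fold change was 4.79 ± 0.46 in BAT over WAT, 3.33 ± 0.43 in BAT over SKM and 1.47 ± 0.40 in SKM over WAT (adjusted p = 1.05e-05, 9.69e-05 and 0.00682, edgeR). Without the 4 mixed and 2 B cell libraries the last was 1.32 (adjusted p = 0.0954, edgeR).

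Hadha and Hadhb encode the alpha and beta subunits of the mitochondrial trifunctional protein, which carries out the later steps for long chains. Hadha was at 71.6, 332 and 418 RPKM in BAT, 50.1, 72.3 and 78.7 RPKM in SKM and 12.3, 18.4 and 28.3 RPKM in WAT. Hadhb was at 112, 512 and 602 RPKM in BAT, 48.4, 65.4 and 87.3 RPKM in SKM and 10.8, 16.8 and 28.7 RPKM in WAT. For both subunits BAT quercetin 3 was the lowest BAT library, within the range of SKM for Hadha, and every SKM library was above every WAT library. The log2 fold change of Hadha was 3.93 ± 0.43 in BAT over WAT, 2.13 ± 0.39 in BAT over SKM and 1.81 ± 0.39 in SKM over WAT (adjusted p = 1.74e-05, 0.00124 and 0.00155, edgeR). That of Hadhb was 4.60 ± 0.47, 2.75 ± 0.43 and 1.84 ± 0.41 in the same order (adjusted p = 1.29e-05, 0.000385 and 0.00202, edgeR). The genes lie head to head on chromosome 5 of GRCm38, Hadha on the minus strand at chr5:30118304-30155162 and Hadhb on the plus strand at chr5:30155248-30184593. The 85 bases between them are shown because both genes have them as upstream sequence. They are written on the plus strand from the RefSeq promoter table, at chr5:30155163-30155247, and hold no AGGTCA on either strand, hence no capitals.
Hadha to Hadhb: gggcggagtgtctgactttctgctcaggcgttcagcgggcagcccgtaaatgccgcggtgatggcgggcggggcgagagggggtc

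Hadh, the hydroxyacyl-CoA dehydrogenase for shorter chains, averaged 258 ± 121 RPKM in BAT, 38.7 ± 10.7 RPKM in SKM and 24.4 ± 12.0 RPKM in WAT. Its log2 fold change was 3.42 ± 0.44 in BAT over WAT and 2.73 ± 0.43 in BAT over SKM (adjusted p = 6.06e-05 and 0.000393, edgeR). Echs1, the short-chain hydratase, averaged 91.6 ± 39.9 RPKM in BAT, 20.3 ± 7.88 RPKM in SKM and 14.5 ± 9.32 RPKM in WAT. The 5 genes made up 33.7 ± 3.65% in BAT, 21.6 ± 3.78% in SKM and 18.6 ± 4.70% in WAT of the summed level of the 32. The lowest BAT share, 27.7%, was above the highest of SKM, 24.2%, and of WAT, 24.5%.

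Electron transfer runs through the flavoprotein subunits Etfa and Etfb to the ubiquinone oxidoreductase Etfdh, and 3 of 3 genes were called higher in BAT than in both other tissues. Of all genes 18.3% were called higher in BAT over WAT and 13.9% in BAT over SKM. Etfdh was at 18.3, 120.4 and 134 RPKM in BAT, 19.3, 27.6 and 30.7 RPKM in SKM and 3.55, 6.01 and 11.3 RPKM in WAT. BAT quercetin 3 was below all SKM libraries, the other 5 BAT libraries were above them, and all SKM libraries were above all WAT libraries. Etfdh had a log2 fold change of 3.97 ± 0.47 in BAT over WAT and 1.97 ± 0.44 in SKM over WAT (adjusted p = 3.17e-05 and 0.00179, edgeR). Etfa averaged 668 ± 262 RPKM in BAT, 183 ± 42.0 RPKM in SKM and 78.2 ± 36.3 RPKM in WAT, with a log2 fold change of 3.10 ± 0.42 in BAT over WAT and 1.24 ± 0.39 in SKM over WAT (adjusted p = 9.04e-05 and 0.0167, edgeR). The second was 0.79 (adjusted p = 0.0956, edgeR) without the 4 mixed and 2 B cell libraries. Etfb averaged 12.3 ± 7.41 RPKM in BAT, 3.48 ± 1.76 RPKM in SKM and 2.59 ± 2.11 RPKM in WAT, from 17 to 207 reads per library. For its call in BAT over SKM the adjusted p was 0.0558 to 0.0722 (edgeR) without SKM quercetin 1 or 2, BAT vehicle 3 or BAT quercetin 1, and 0.101 without the 4 mixed libraries. Its call in BAT over WAT was lost without the 4 mixed and 2 B cell libraries, at 1.59 (adjusted p = 0.120, edgeR). Of its exon bases 53.0% are shared with Gm45233 on the same strand, so the lower level of Etfb beside Etfa is uncertain.

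Double bonds in unsaturated chains are handled by the isomerases Eci1 and Eci2 and by the dienoyl-CoA reductases Decr1, in mitochondria, and Decr2, in peroxisomes. All 4 were called higher in BAT than in both other tissues, and Eci1 alone was called higher in SKM than in WAT. The shares of all genes called higher were 18.3% in BAT over WAT, 13.9% in BAT over SKM and 21.7% in SKM over WAT. Decr2 was at 6.77, 23.0 and 34.6 RPKM in BAT, 0.878, 2.20 and 3.60 RPKM in SKM and 3.34, 4.01 and 4.40 RPKM in WAT. BAT stood above both tissues in every library, and Decr2 had the smallest p of the 32 genes in BAT over SKM, with a log2 fold change of 3.25 ± 0.37 (adjusted p = 4.93e-05, edgeR). Decr1 averaged 229 ± 80.4 RPKM in BAT, 42.7 ± 12.9 RPKM in SKM and 21.5 ± 12.3 RPKM in WAT, with 3.44 ± 0.44 in BAT over WAT and 2.44 ± 0.43 in BAT over SKM on the log2 scale (adjusted p = 6.45e-05 and 0.000848, edgeR). Eci1 averaged 333 ± 147 RPKM in BAT, 81.2 ± 27.4 RPKM in SKM and 36.2 ± 17.7 RPKM in WAT, with 3.23 ± 0.42 and 2.04 ± 0.40 in the same order (adjusted p = 6.86e-05 and 0.00188, edgeR). Eci2 was lower, at 23.0 ± 5.24 RPKM in BAT, 12.1 ± 5.76 RPKM in SKM and 7.06 ± 2.83 RPKM in WAT, and for its call in BAT over SKM the adjusted p was 0.0525 to 0.0894 (edgeR) without SKM vehicle 2 or 3, SKM quercetin 1 or 3, BAT vehicle 2 or 3 or BAT quercetin 1 or 2. Without the 4 mixed libraries Eci1 in SKM over WAT was at 0.99 (adjusted p = 0.0816, edgeR) and no longer called, and Decr2 was called lower, at -1.12 (adjusted p = 0.0132, edgeR).

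Of the peroxisomal genes, Ehhadh and Hsd17b4 encode the bifunctional enzymes, Acaa1a and Acaa1b the thiolases, and Pex11a a factor of peroxisome division. In BAT over SKM 5 of 5 were called higher and in BAT over WAT 3 of 5, where 13.9% and 18.3% of all genes were. In SKM over WAT 0 were called higher and Acaa1b was called lower, where 21.7% of all genes were called higher and 28.6% lower. The median log2 fold change there was -0.51 for the 5 genes and -0.24 for all genes tested. It was 1.47 for the 5 later steps of the mitochondrial spiral. Without the 4 mixed and 2 B cell libraries Ehhadh and Hsd17b4 were called lower as well, at -4.05 (adjusted p = 0.00117, edgeR) and -1.38 (adjusted p = 0.00307, edgeR). The 5 genes made up 3.84 ± 1.71% in BAT, 3.92 ± 1.34% in SKM and 12.2 ± 2.48% in WAT of the summed level of the 32. Every WAT library, at 9.52% or more, was above every BAT library, at 6.95% or less, and every SKM library, at 6.16% or less.

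Acaa1b (chr9:119148023-119157093) was at 8.15, 18.5 and 58.4 RPKM in BAT, 0, 0.248 and 1.98 RPKM in SKM and 0.468, 2.58 and 6.09 RPKM in WAT. No BAT library overlapped with the other tissues. Its log2 fold change was 5.29 ± 0.88 in BAT over SKM (adjusted p = 0.000624, edgeR), the largest of the 32 genes there, with 0 to 48 reads per library in SKM. In SKM over WAT it was -2.05 ± 0.80 (adjusted p = 0.0433, edgeR), and the adjusted p was 0.0521 to 0.117 (edgeR) without SKM vehicle 1 or 2, SKM quercetin 1 or 3, WAT vehicle 1 or 3, WAT quercetin 3, BAT vehicle 3 or BAT quercetin 1 or 2. Within flow cell H7H2WDSXX it was -1.43 (adjusted p = 0.199, edgeR). Acaa1a was more even, at 33.3 ± 11.7 RPKM in BAT, 14.4 ± 4.03 RPKM in SKM and 20.6 ± 3.49 RPKM in WAT, and was not called in BAT over WAT (adjusted p = 0.0530, edgeR), where the adjusted p was 0.0112 to 0.0466 (edgeR) without SKM vehicle 1 or 2, WAT quercetin 2 or BAT vehicle 1. Both genes are paralogs, their sequence identity was not measured here, and how reads that match both were counted is not given. Ehhadh was at 4.35, 42.5 and 164 RPKM in BAT, 2.29, 3.54 and 16.1 RPKM in SKM and 3.25, 7.07 and 132 RPKM in WAT. The highest BAT and WAT values were those of BAT vehicle 1 and WAT vehicle 1, and the tissues overlapped. Ehhadh was not called in BAT over WAT, but without WAT vehicle 1 it was, at 2.59 (adjusted p = 0.0137, edgeR), and so it was within flow cell H7H2WDSXX, at 3.20 (adjusted p = 0.00485, edgeR). For SKM over WAT it had -2.09 ± 0.90 (adjusted p = 0.0643, edgeR), and the adjusted p was 0.0339 to 0.0445 (edgeR) without SKM vehicle 3 or WAT vehicle 2 or 3. Without the 4 mixed libraries it was called lower, at -3.44 (adjusted p = 0.00844, edgeR). It was called higher in BAT over SKM at 3.02 ± 0.93 (adjusted p = 0.0252, edgeR), but the adjusted p was 0.0539 to 0.0676 (edgeR) without SKM vehicle 1 or 2, SKM quercetin 1 or 3, BAT vehicle 1 or BAT quercetin 2. Hsd17b4 averaged 112 ± 30.7 RPKM in BAT, 30.5 ± 9.19 RPKM in SKM and 41.3 ± 27.7 RPKM in WAT, and Pex11a averaged 24.8 ± 5.18 RPKM in BAT, 7.88 ± 2.52 RPKM in SKM and 6.21 ± 4.35 RPKM in WAT.

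**Figure D4:**
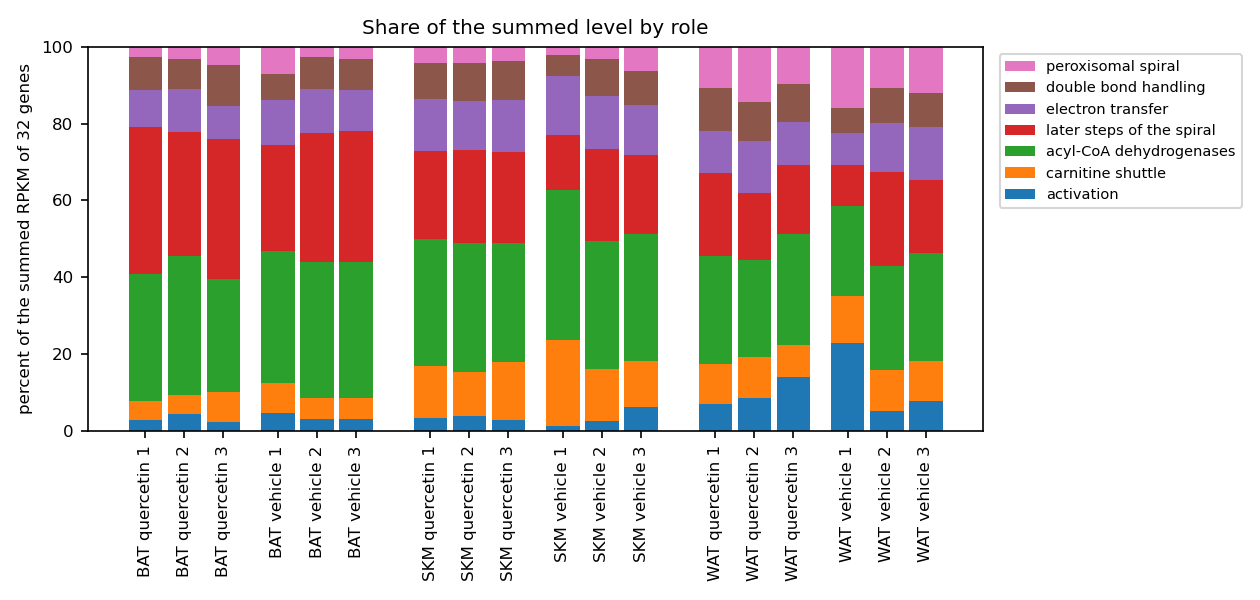
Share of the summed RPKM of the 32 genes (y axis, percent) held by each role, stacked for each library (x axis, quercetin left of vehicle in each tissue). The top segment, the peroxisomal genes, is 9.52% or more in every WAT library and 6.95% or less in every BAT and SKM library.

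Further genes of fatty acid oxidation and of peroxisomes were taken from a list of 34. Of the 33 tested, 24 were called higher and 1 (Cpt1c) lower in BAT over WAT, where 18.3% of all genes were called higher and 22.0% lower. In BAT over SKM 16 were called higher, 1 (Acsl6) lower and 16 neither, where 13.9% of all genes were called higher and 13.3% lower. For SKM over WAT 10 were called higher and 0 lower, where 21.7% of all genes were called higher and 28.6% lower. The medians were 1.57, 1.03 and 0.33 on the log2 scale. Slc25a20, the carnitine-acylcarnitine carrier of the inner membrane, had a log2 fold change of 3.42 ± 0.42 in BAT over WAT and 2.23 ± 0.40 in BAT over SKM (adjusted p = 4.77e-05 and 0.00107, edgeR). Pex7, a peroxisomal import receptor, had 1.69 ± 0.22 and Amacr, a racemase of branched chains, 2.33 ± 0.32 in BAT over WAT. Slc22a5, the carnitine importer, had 2.01 ± 0.36 and Etfrf1, a regulator of the electron transfer flavoprotein, 2.12 ± 0.39 in BAT over SKM. In SKM over WAT the smallest p were those of the synthetase Acsl6, which averaged 6.83 ± 9.55 RPKM in SKM and 0.0215 ± 0.0113 RPKM in WAT, at 7.97 ± 1.08, the dehydrogenase Acad12 at 2.08 ± 0.38 and Amacr at 1.70 ± 0.31.

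The citrate cycle, which takes up the acetyl-CoA, had 15 of 15 genes called higher in BAT over WAT, 14 of 15 in BAT over SKM and 15 of 15 in SKM over WAT, with medians of 3.43, 1.39 and 2.08 on the log2 scale. Of all genes 18.3%, 13.9% and 21.7% were called higher in the same order. The summed level of the 32 genes was 1.23 ± 0.0771 times that of the 15 citrate cycle genes in BAT, 0.687 ± 0.169 times in SKM and 1.42 ± 0.535 times in WAT (± SD, n = 6 libraries). Every BAT library, at 1.11 or more, was above every SKM library, at 0.982 or less, and WAT overlapped with both.

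Quercetin was compared with vehicle in each tissue, 3 libraries against 3, by edgeR over 13274 genes in BAT, 13562 in SKM and 14919 in WAT. No gene was called in any tissue (0% of those tested), and so 0 of the 32, 31 and 31 members tested. Acaa1b in SKM and Cpt1b in WAT were too low to be tested. At an unadjusted p under 0.05 there were 241 genes in BAT, 406 in SKM and 122 in WAT, with 0 members in each, and DESeq2 called 2, 0 and 7 genes, with 0 members. The median log2 fold change of the members was -0.070 in BAT, -0.023 in SKM and 0.22 in WAT, and that of all genes tested was 0.051, -0.034 and -0.014. With single libraries left out, the median of the members ran from -0.27 (without BAT quercetin 2) to 0.30 (without BAT quercetin 3) in BAT, from -0.11 (without SKM quercetin 2) to 0.19 (without SKM vehicle 3) in SKM and from -0.0039 (without WAT vehicle 2) to 0.99 (without WAT vehicle 1) in WAT. Its sign thus turned with single libraries in all 3 tissues. Quercetin and vehicle libraries did not overlap for 1 member in BAT, 0 in SKM and 3 in WAT, where 6.19%, 9.25% and 4.44% of all genes did not overlap. The exact permutation test of 3 libraries against 3 cannot give a two-sided p under 0.1.

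In BAT the member with the smallest p was Mlycd. It was at 60.2, 56.9 and 40.2 RPKM in BAT quercetin 1 to 3, against 110.2, 66.9 and 70.1 RPKM in BAT vehicle 1 to 3. The groups did not overlap, and the log2 fold change was -0.66 ± 0.32 with an interval of -1.42 to 0.10 (adjusted p = 0.977, edgeR), and -0.39 without BAT vehicle 1. Cpt1a was at 1.87, 2.38 and 2.45 RPKM in BAT quercetin 1 to 3, against 15.9, 1.38 and 1.89 RPKM in BAT vehicle 1 to 3. One vehicle library was high and the other libraries lay together, and the log2 fold change was -1.52 ± 0.90 with all 6 libraries and 0.46 without BAT vehicle 1. Cpt1b was at 3.52, 4.65 and 0.713 RPKM in BAT quercetin 1 to 3, against 6.51, 5.48 and 2.93 RPKM in BAT vehicle 1 to 3, a log2 fold change of -0.77 ± 0.65, which ran from -1.26 (without BAT quercetin 2) to -0.31 (without BAT quercetin 3). Ehhadh was at 34.9, 50.1 and 4.35 RPKM in BAT quercetin 1 to 3, against 164, 33.5 and 63.6 RPKM in BAT vehicle 1 to 3. Its groups overlapped, with a log2 fold change of -1.58 ± 0.89, and -0.73 without BAT vehicle 1. Acaa1a had 0.60 ± 0.41 and Acaa1b -0.83 ± 0.61, and without BAT vehicle 1 they had 0.27 and -0.048. The summed level of the 32 genes was 10602, 8751 and 2636 RPKM in BAT quercetin 1 to 3, against 5427, 8152 and 8481 RPKM in BAT vehicle 1 to 3. The quercetin group held both the highest and the lowest library.

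In SKM the member with the smallest p was Eci2. It was at 6.43, 11.3 and 10.3 RPKM in SKM quercetin 1 to 3, against 23.2, 11.2 and 9.82 RPKM in SKM vehicle 1 to 3. Acadl was at 128, 258 and 192 RPKM in SKM quercetin 1 to 3, against 469, 259 and 195 RPKM in SKM vehicle 1 to 3. Mlycd was at 38.5, 65.4 and 84.7 RPKM in SKM quercetin 1 to 3, against 224, 69.6 and 45.5 RPKM in SKM vehicle 1 to 3. SKM vehicle 1 was the highest library for all 3 genes, and the other libraries overlapped. With all libraries the log2 fold change was -0.71 ± 0.41 for Eci2, -0.72 ± 0.44 for Acadl and -0.90 ± 0.62 for Mlycd (adjusted p = 0.910 for each, edgeR). Without SKM vehicle 1 the values were -0.20, -0.26 and 0.10. Echs1 had -0.53 ± 0.40 and Decr2 0.57 ± 0.49, and without that library they had -0.12 and 0.26. Cpt1a was at 3.76, 3.36 and 2.51 RPKM in SKM quercetin 1 to 3, against 2.59, 2.91 and 4.10 RPKM in SKM vehicle 1 to 3. Its log2 fold change was -0.036 ± 0.30, and that of Cpt1b was -0.15 ± 0.46.

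In WAT the member with the smallest p was Acaa2. It was at 44.3, 75.1 and 67.9 RPKM in WAT quercetin 1 to 3, against 40.8, 41.2 and 38.3 RPKM in WAT vehicle 1 to 3. The groups did not overlap, and the log2 fold change was 0.63 ± 0.30 with an interval of -0.098 to 1.36 and an unadjusted p of 0.0787 (edgeR). Decr2 and Acaa1a were the other members without overlap. Decr2 was at 4.34, 4.24 and 4.40 RPKM in WAT quercetin 1 to 3, against 3.78, 3.65 and 3.34 RPKM in WAT vehicle 1 to 3, and Acaa1a was at 20.6, 27.1 and 20.8 RPKM in WAT quercetin 1 to 3, against 19.9, 17.2 and 18.02 RPKM in WAT vehicle 1 to 3. For both, the gap between the groups was small beside their levels. Acad9 had a log2 fold change of 0.46 ± 0.31, Pex11a 1.08 ± 0.85, Acaa1b 1.07 ± 0.85 and Eci1 0.66 ± 0.57. With single libraries left out these ran from 0.30 (without WAT quercetin 2) to 0.65 (without WAT quercetin 1) for Acad9, 0.60 (without WAT vehicle 2) to 2.08 (without WAT vehicle 1) for Pex11a, 0.54 (without WAT quercetin 3) to 2.18 (without WAT vehicle 1) for Acaa1b and 0.36 (without WAT vehicle 2) to 1.38 (without WAT vehicle 1) for Eci1. Cpt1a was at 7.78, 8.97 and 6.82 RPKM in WAT quercetin 1 to 3, against 6.66, 10.3 and 8.37 RPKM in WAT vehicle 1 to 3, a log2 fold change of -0.10 ± 0.26. The libraries within each WAT group differed widely. The summed level of the 32 genes was 449, 939 and 1015 RPKM in WAT quercetin 1 to 3, against 1534, 326 and 444 RPKM in WAT vehicle 1 to 3. The adipocyte markers summed to 4496, 15564 and 9021 RPKM in WAT quercetin 1 to 3, against 20527, 359.7 and 5842 RPKM in WAT vehicle 1 to 3, and the B cell markers to 1507, 1.63 and 259 RPKM, against 0.649, 1241 and 559 RPKM. The 3 libraries with the lowest sums of the 32 genes had the 3 lowest adipocyte sums and the 3 highest B cell sums, and the part of cell content in these values was not tested. The median of the members was 0.99 without WAT vehicle 1 and -0.0039 without WAT vehicle 2, in place of 0.22. It was also 0.066, 0.070, 0.076 and 0.49 without WAT vehicle 3, quercetin 2, quercetin 3 and quercetin 1. Within flow cell H7H2WDSXX, which holds 2 WAT libraries of each group, it was 0.84. In SKM the same restriction left out 1 quercetin library and gave -0.059, and all BAT libraries came from that flow cell.

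**Figure D5:**
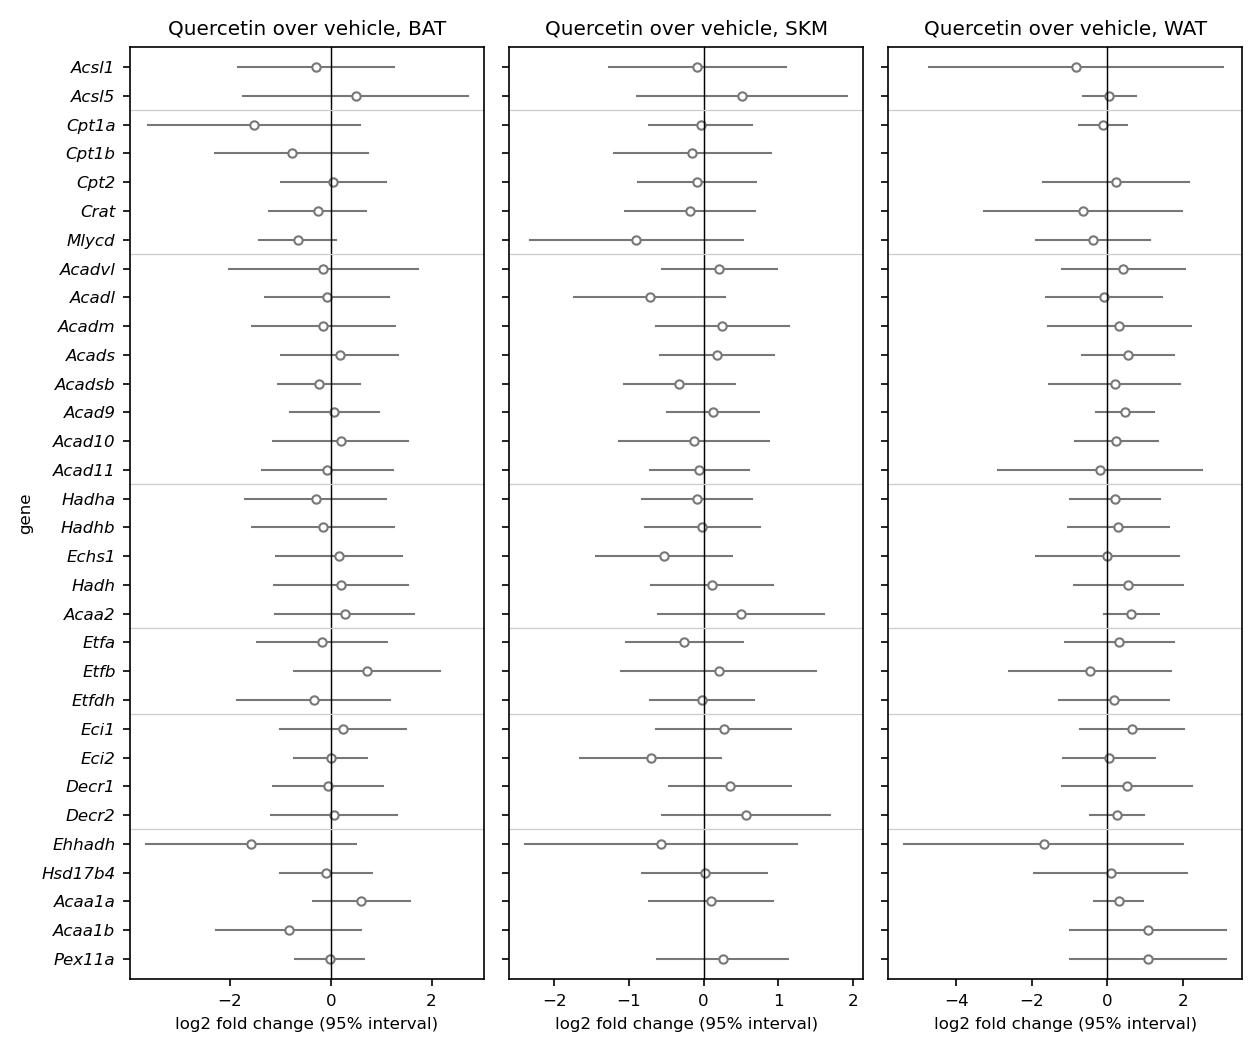
Log2 fold change of quercetin over vehicle (x axis, a separate range in each panel) with its 95% interval for each of the genes tested (y axis, grouped by role) in BAT, SKM and WAT. All points are open, since none passed an adjusted p of 0.05, and all intervals include 0.

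Whether the effect of quercetin differed between tissues was tested as an interaction in a fit of all 18 libraries. By edgeR 0 of 16388 genes were called for each pair of tissues, and thus 0 members, with 173, 223 and 231 genes and 0 members at an unadjusted p under 0.05 in BAT over WAT, BAT over SKM and SKM over WAT. DESeq2 called 13, 2 and 7 genes. The members with the smallest p were Cpt1a at -1.42 ± 0.89 and Pex11a at -1.13 ± 0.83 in BAT over WAT, on the log2 scale. In BAT over SKM they were Cpt1a at -1.52 ± 0.89 and Eci2 at 0.67 ± 0.61, and in SKM over WAT Eci2 at -0.73 ± 0.61 and Acaa1b at -1.58 ± 1.57. Without BAT vehicle 1 the Cpt1a values were 0.64 and 0.51, and without SKM vehicle 3 the Acaa1b value was 2.72.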

How the data were processed

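RNA of 18 libraries was measured by sequencing, in 6 groups of tissue and treatment taken from the labels. The authors deposited raw counts per Ensembl gene, not normalised. The submitters' processing notes name HISAT2, HTSeq and DESeq2 and build mm10, without saying what each was used for. No label states a version, an annotation release or how strand was handled. Of the 53465 identifiers, 53274 matched a symbol in the GENCODE annotation of GRCm38, which also gave exon lengths and coordinates. Reads without a feature were 2.53 to 9.11% and ambiguous reads 6.47 to 9.84%, and both were left out. Replicates were not copies of each other: over 18 pairs chi-square per degree of freedom was at least 27.0.

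Counts were filtered with filterByExpr (minimum count 10, minimum total 15), normalised by TMM and tested two-sided with glmQLFit and glmQLFTest of edgeR 4.0.16 in R 4.3.3. Tissue differences averaged both treatments in a fit of 18 libraries, and quercetin was tested in the 6 libraries of each tissue. Benjamini-Hochberg adjustment covered every gene in a fit, calls were made at 0.05, and intervals are 95%. The steps were tested on simulated data. Alternatives were DESeq2 1.42.0, limma 3.58.1 voom with library weights, RLE factors, no filter, a replicate block, single libraries left out, 6 libraries of doubtful content left out (added after seeing the data), one treatment or flow cell alone, no mixed libraries and another exon length. Replicate numbers were not taken to pair libraries. Members and lists were chosen with earlier results of these data known.

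Tissue fold changes are printed for the 12 called members with the smallest p in each pair of tissues, and quercetin values for Cpt1a, Cpt1b and the 5 members with the smallest p. Interactions are printed for the 2 members with the smallest p, and other pathway genes for the 3 with the smallest p. Values of Cpt1a, Acsl1, Ehhadh, Acaa1b, Crat, Mlycd, Acadsb, Cpt1b, Acad9, Acad11, Etfb, Eci1, Eci2, Hsd17b4 and Acaa1a outside this rule, of Decr2 and Acaa1a in WAT, and the genes called lower were added after their values were seen.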

Additional observations from a re-analysis of the deposited data

How the results depend on the processing

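Across the alternatives, 983 values of the named tissue differences kept their direction and their call and 25 kept the direction but missed the threshold. These genes were named for having the smallest p in the same data, so most of their calls were likely to hold. Many alternatives leave out a single library and so share most of their data. The tally thus cannot show how stable the calls of all 32 genes are. Calls of other members, such as Acad9, Acad11 and Ehhadh in BAT over SKM, were lost without single libraries. Where a count below differs from the report, the cause was not tested. DESeq2 called 1 gene of the 32, Cpt1a, lower in BAT over WAT and 5 in SKM over WAT. It called 13, 2 and 7 genes for the interactions in BAT over WAT, BAT over SKM and SKM over WAT, and 2 and 7 genes for quercetin in BAT and WAT. Voom with library weights called 5242 genes higher and 5811 lower in BAT over WAT, with 1 of the 32, Cpt1a, lower, 3848 higher and 3603 lower in BAT over SKM, and 23 of the 32 higher in SKM over WAT. The shares of all genes called by DESeq2 and voom in SKM over WAT are not given here. Their counts of the 32 there thus stand without a background. With vehicle libraries alone, the genes called higher and lower were 808 and 634 in BAT over WAT, 327 and 544 in BAT over SKM, and 1694 and 1397 in SKM over WAT, with 18, 11 and 6 of the 32 higher and 0 lower in SKM over WAT. With quercetin libraries alone they were 1721 and 1244 in BAT over WAT and 1146 and 984 in BAT over SKM, and 2311 were lower in SKM over WAT, with 1 of the 32, Cpt1a, lower in BAT over WAT, 15 higher in BAT over SKM and 3 higher in SKM over WAT. Within flow cell H7H2WDSXX 19 of the 32 were higher and 1 lower in SKM over WAT, where 23.5% of all genes were higher. The share of all genes lower there is not given here, so the 1 stands without a background. Without the 4 mixed and 2 B cell libraries, 1673 genes were higher and 1143 lower in BAT over WAT, and 2505 lower in SKM over WAT, with 7 of the 32 higher and 5 lower there. Without a filter 32 genes were called for quercetin in SKM. Voom gave a median of 0.99 for the members in WAT with quercetin, against 0.22.

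Leaving out each library in turn, the genes called higher and lower ran from 2545 to 3758 and 2784 to 4159 in BAT over WAT, 1732 to 2627 and 1647 to 2470 in BAT over SKM, and 3276 to 3997 and 3797 to 4939 in SKM over WAT. Of the 32 genes, 28 to 30 were higher and 0 to 1 lower in BAT over WAT, 21 to 28 higher, the fewest without SKM quercetin 1, and 0 to 1 lower in BAT over SKM, and 12 to 21 higher and 0 to 5 lower in SKM over WAT. The ends of the ranges of the 32 and of all genes can come from different libraries left out, so they are not backgrounds for each other. The gene lower in BAT over WAT, Cpt1a, was called without BAT vehicle 1. Other alternatives also called it lower, at -1.13 by DESeq2 (adjusted p = 0.0361), -1.90 by voom (adjusted p = 1.22e-05, limma) and -1.81 (adjusted p = 0.00534, edgeR) with the quercetin libraries alone. Quercetin in BAT gave 0 to 1 genes, with 1 without BAT quercetin 3.

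Of the uncalled values of single genes for quercetin and the interactions, 13 changed sign. The uncalled medians of the members also changed sign with single libraries in BAT, SKM and WAT, and with voom they were 0.072 in BAT and 0.043 in SKM. Quercetin in SKM gave 0.0043 for Cpt1a on the log2 scale in the fit of all 18 libraries and 0.11 within flow cell H7H2WDSXX. With voom, quercetin in BAT gave 0.043 for Cpt1a and 0.084 for Acaa1b. With single libraries left out, the interaction of Cpt1a ran from -1.89 to 0.64 in BAT over WAT and -2.00 to 0.51 in BAT over SKM, and that of Acaa1b from -2.64 to 2.72 in SKM over WAT. Quercetin values ran from -1.98 to 0.46 for Cpt1a in BAT, -0.17 to 0.19 for Cpt1a, -0.40 to 0.28 for Cpt1b and -1.28 to 0.10 for Mlycd in SKM, and -0.25 to 0.018 for Cpt1a in WAT. With the longest transcript as the length, the shares of Cpt1b and Acsl5 in SKM were lower by more than their SD, and those in BAT and WAT by less.

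Replicate numbers are shared by the groups, but do not say that animals are shared. Deviations of libraries with the same number correlated at -0.72 to 0.26 between quercetin and vehicle of 1 tissue, with 2 of 9 pairs over 0.1. Between tissues of 1 treatment they correlated at -0.17 to 0.29 (median 0.13), with 10 of 18 pairs over 0.1, against a median of -0.015 and 5 of 36 for other numbers. In the vehicle groups 8 of these 9 pairs were over 0.1, and in the quercetin groups 2 of 9. Since not every pair was, the numbers were not taken to pair libraries, but shared animals cannot be told apart from other sources, and p-values of the tissue differences treat the libraries as independent. The replicate block for tissue differences was each treatment and number. With it 28, 26 and 13 of the 32 were higher in BAT over WAT, BAT over SKM and SKM over WAT. In BAT over WAT 1, Cpt1a, was lower, at -1.45 (adjusted p = 0.0280, edgeR). For quercetin in each tissue the block was the number alone, and 0 members were called. That block joins a quercetin and a vehicle library, so it does not stand for an animal. The shares of all genes called with the replicate block are not given here, so its counts of the 32 stand without a background. The limits are 3 libraries a group, libraries of mixed tissue content, and low counts of Cpt1b in WAT and of Acaa1b in SKM. Cell content was not adjusted for.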

Other observations

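By mean level per length, the leading genes in BAT were Acaa2 at 1396 ± 705 RPKM, Acadl at 1277 ± 484 RPKM and Etfa at 668 ± 262 RPKM (SD, n = 6 libraries). In SKM they were Acadl at 250.3 ± 118 RPKM, Etfa at 183 ± 42.0 RPKM and Acaa2 at 141 ± 61.6 RPKM, and in WAT Acsl1 at 97.9 ± 129 RPKM, Acadl at 89.2 ± 48.2 RPKM and Etfa at 78.2 ± 36.3 RPKM. The thiolase Acaa2 and the dehydrogenase Acadl held the first and second place in BAT, whereas the synthetase Acsl1 led in WAT with an SD above its mean. Without WAT vehicle 1 Acsl1 averaged 48.5 ± 51.1 RPKM in WAT and Acadl 72.7 ± 29.5 RPKM (SD, n = 5 libraries), so Acsl1 no longer led.

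Single libraries held many of the extremes. The share over all genes is given for vehicle 1 libraries only, so the counts of other libraries stand without a background. Among BAT libraries, BAT quercetin 3 was the lowest for 26 of the 32 genes and BAT quercetin 1 the highest for 20. Among SKM libraries, SKM vehicle 1 was the lowest for 17 (53.1%), where it was the lowest for 36.1% of all genes. It was the highest for 8 (25.0%), where it was the highest for 28.8% of all genes. SKM quercetin 2 was the highest for 11. Among WAT libraries, WAT vehicle 1 was the highest for 16 and WAT vehicle 2 the lowest for 22. One gene, Mlycd, was highest in the library numbered vehicle 1 in all 3 tissues, which is 3.13% of the 32, and the same held for 820 of 16388 genes, or 5.004%.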
